A study of Triticum aestivum with 18 samples.

Results

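The 200 most abundant low-confidence genes of wheat microspore cultures are described here. Low-confidence genes are models of the IWGSC v1.1 annotation whose identifier ends in LC. They were ranked by their mean abundance in TPM, transcript abundance scaled to a common library total, over 18 libraries, and the 200 highest of 161536 such genes were taken, within 269428 genes in all. The members were thus chosen by their mean TPM, and their level is a description without a test. An arithmetic mean also favours genes that are very high in few libraries. The libraries came from Nanda, a spring wheat cultivar that responds well to microspore culture, and Sadash, which responds poorly. Each was sampled on Day 0 (isolated microspores), Day 7 (proembryos) and Day 21 (embryo-like structures), and each of the 6 groups has 3 biological replicates. In all groups spikes had a cold treatment at 4 °C before the microspores were isolated, and RNA came from pooled material, so that a library is an average over many cells and each response type is a single cultivar. Fewer cells of a type and less RNA per cell cannot be told apart in such libraries.

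In microspore embryogenesis, an immature pollen grain leaves the pollen pathway under stress, divides within its wall and forms an embryo without fertilization. Low-confidence models are predictions with weak or incomplete support as protein-coding genes. Such sets commonly hold fragments of genes, pseudogenes, pieces of transposable elements and short transcribed stretches of unknown kind. The tables name the members by identifier only, so no product or role is given for any of them. TPM divides the reads of a transcript by its effective length, the number of positions at which a sequenced fragment can start. For a model that is hardly longer than a fragment this length is very small, and few reads then give a high TPM.

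The totals of the 18 libraries ran from 7045182 to 29063385 expected counts. Low-confidence genes held 5.14% to 6.88% of these counts and 10.8% to 17.2% of the TPM, and the 200 members alone 0.935% to 2.38% of the counts and 3.13% to 9.29% of the TPM. The stage labels were checked with high-confidence marker genes. Both GAMYB-type genes, which act in pollen development, had their highest medians on Day 0 in each cultivar, and the BABY BOOM type gene TraesCS3D02G389100, an embryo regulator, was at 0 to 0.04 TPM on Day 0 and at 18.3 to 46.2 TPM on Day 7. Both vicilin types, which are seed storage proteins, were at 0 to 0.12 TPM on Day 0. Both PCS1 types, given in the study's lists under tapetal cell death and used here for anther wall, were at 0 in every Day 0 library, at 0.34 to 2.92 TPM on Day 7 and at 6.83 to 22.7 TPM on Day 21. Nanda Day 7 replicate 3 stood apart with 10.2 TPM of the vicilin type TraesCS5D02G440000, against 0.04 and 0.11 TPM in replicates 1 and 2.

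The members were mostly short models, which a ranking by TPM favours. The ratio of expected count to TPM measures effective length, and it was set relative to the median high-confidence gene of the same library. This relative length had a median of 0.175 over the 193 members with enough counts (quartiles 0.0556 and 0.426), against 0.517 over the other low-confidence genes that passed the expression filter and 0.943 over high-confidence genes that passed. Sets of high TPM lay closer, with medians of 0.258 over the next 200 low-confidence genes by mean TPM and 0.434 over the 200 most abundant high-confidence genes. In 101 members the relative length was below 0.2, and in 9 it was 1 or more. At the far end lie 14 members, 7 with a relative length below 0.01 and 7 with too few counts to measure it, and these had mean TPM values of 88.7 to 327 from only 0.165 to 2.85 CPM, counts scaled to library size. TraesCS7B02G662400LC is an example, with 9.5, 7.29 and 41.2 expected counts in Sadash on Day 21 that the table converts to 192, 446 and 1523 TPM. When low-confidence genes were ranked by mean CPM, which ignores length, 100 of the 200 members remained.

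**Figure D1:**
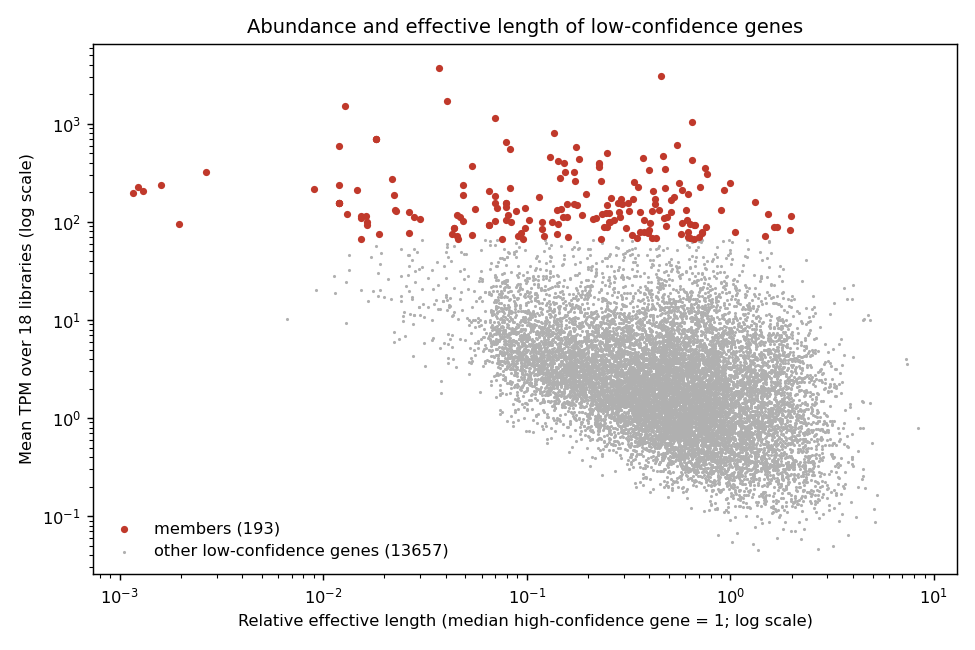
Mean TPM over the 18 libraries (log scale) against relative effective length (log scale, median high-confidence gene = 1). Red points are the 193 members with a measured length and grey points the 13657 other low-confidence genes that passed the expression filter and had one. The members lie above 66 TPM by the rule, and 101 of them lie to the left of 0.2.

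Many members shared reads with another model. RSEM divides a read that fits several transcripts among them, so its expected counts need not be whole. A value was called whole within 0.005 of a count. Of the positive values of the members, 79.6% were not whole, against 34.1% in the other low-confidence genes that passed the filter, 63.3% in high-confidence genes that passed and 91.3% in the 200 most abundant high-confidence genes. In the next 200 low-confidence genes by mean TPM the share was 63.6%. Only 21 members had whole counts in each library where they were detected, among them TraesCSU02G656000LC, TraesCS7A02G451200LC, TraesCS7A02G101700LC and TraesCS1B02G136400LC. Among genes averaging over 5 expected counts, 5 sets had equal values in all libraries, within 1% or 0.5 counts, whichever was larger. TraesCS2A02G239100LC, TraesCS2B02G328300LC and TraesCS2D02G245400LC, named for the same chromosome group of the 3 subgenomes, each averaged 703 TPM, and the 4 unplaced genes TraesCSU02G344800LC, TraesCSU02G409200LC, TraesCSU02G587300LC and TraesCSU02G596100LC each averaged 157 TPM. TraesCS1D02G148000LC had the values of the high-confidence gene TraesCS1D02G109800. Members of such a set are not separate measurements, and keeping a single gene of each of the 5 sets left 193 members. Below that minimum, TraesCS7B02G662100LC and TraesCS7B02G662500LC had identical counts in all 18 libraries, and neither was tested for changes. A single transcript was annotated for 196 of the 200.

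The members were unevenly spread over the identifiers' chromosomes. Unplaced sequence held 22 members, or 11%, against 4.18% of all low-confidence genes, and these 22 carried 30.8% of the summed mean TPM of the members. Chromosomes 1B, 7B and 5B followed with 17, 15 and 14 members, while 4A and 4B held 2 each. By subgenome, 47 members belonged to A, 70 to B and 61 to D, which is 23.5%, 35% and 30.5% of the members beside 31.9%, 36.1% and 27.8% of all low-confidence genes. Of the 178 members with a chromosome, 30.9% lay in the last 20% of its low-confidence identifiers, which are numbered along the chromosome, against 18% of the placed low-confidence genes that passed the filter. The first 20% of identifiers held 18.5% of the placed members and 18.9% of those low-confidence genes. No coordinates or sequences of these models were used here.

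**Figure D2:**
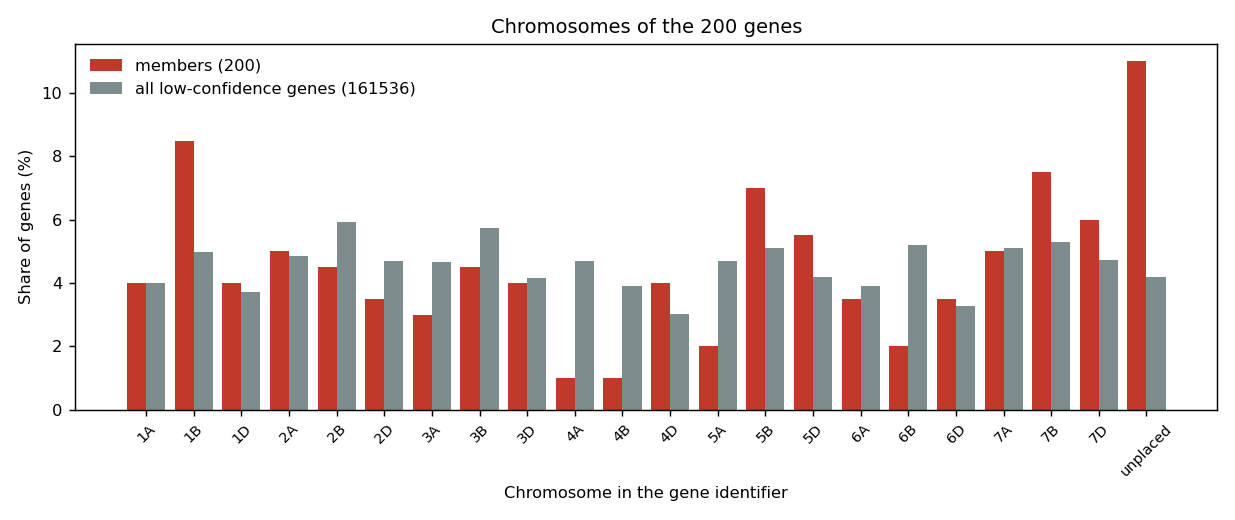
Share of genes (%) by the chromosome named in the identifier, for the 200 members (red) and all 161536 low-confidence genes (grey). Unplaced sequence holds 11% of the members and 4.18% of the low-confidence genes, and 4A and 4B hold 1% of the members each.

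The first 5 ranks were held by unplaced genes, which together made up 23.9% of the members' summed mean TPM. The highest, TraesCSU02G619600LC, averaged 3719 TPM. In Nanda it had 2678, 2436 and 4205 TPM on Day 0, 2634, 89.5 and 3701 TPM on Day 7 and 867, 1383 and 1747 TPM on Day 21. In Sadash it had 4982, 5847 and 5764 TPM on Day 0, 20349, 1876 and 4562 TPM on Day 7 and 1342, 1284 and 1191 TPM on Day 21. The replicates of Day 7 spread over more than an order of magnitude in both cultivars, and of the 7 comparisons only the fall of Sadash Day 21 against Day 7 passed (log2 fold change -2.77, SE 0.82, adjusted p = 0.0083, edgeR). The gene whose profile was most like it, by Pearson's r of log2(TPM + 1) over the 18 libraries, was TraesCSU02G589600LC, at rank 3 (r = 0.94), followed by TraesCSU02G587800LC (r = 0.63) and TraesCS1B02G136100LC (r = 0.59). These libraries share stages and cultivars, so the coefficients describe the profiles only.

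The fourth in rank, TraesCSU02G121800LC, had 383, 2585 and 2960.2 TPM in Nanda on Day 0, 396, 2749.8 and 1892 TPM on Day 7 and 39.8, 38 and 0 TPM on Day 21. Sadash libraries held 500.3, 551 and 361 TPM on Day 0, 11375, 123 and 3371 TPM on Day 7 and 98.4, 102 and 74.9 TPM on Day 21. Where it was low, its values equalled those of TraesCSU02G344800LC and the 3 genes equal to that one, which had 383, 0 and 0 TPM in Nanda on Day 0 and 500.3, 551 and 361 TPM in Sadash. It fell from Day 7 to Day 21 in both cultivars (log2 fold changes -6.46 in Nanda and -5.74 in Sadash, adjusted p = 4.7e-04 and 3.7e-04, edgeR). TraesCSU02G575500LC also had equal expected counts where TraesCSU02G121800LC was low. In Nanda Day 0 replicate 3 it had 384.1, against 768.2 in TraesCSU02G121800LC. These fold changes are those of a single model, and how far they follow the division of shared reads was not tested.

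TraesCSU02G656000LC, the second in rank, was steady by comparison. Its values were 3779, 2348 and 2932 TPM in Nanda on Day 0, 2059, 2289 and 2859 TPM on Day 7 and 4138, 3272 and 3435 TPM on Day 21. In Sadash they were 3806, 3422 and 3599.9 TPM on Day 0, 2620.2, 2602 and 3361 TPM on Day 7 and 2838, 3371 and 3253 TPM on Day 21. The cultivars overlapped on each day, no comparison was called, and with whole counts throughout and 1804 CPM on average it was the member with the most reads. The fifth in rank, TraesCSU02G587800LC, differed between the cultivars instead. Nanda had 436, 434 and 466 TPM on Day 0 and 289, 245 and 276 TPM on Day 7, against 2855, 2883 and 2652 TPM and 4552, 1330.0 and 3899 TPM in Sadash. On Day 21 it was at 29.9, 44.2 and 41.4 TPM in Nanda and 51.5, 54.2 and 38.6 TPM in Sadash. The cultivars did not overlap on Day 0 and Day 7 (log2 fold changes -2.41 and -3.33, adjusted p = 1.1e-05 and 4.0e-07, edgeR) and overlapped on Day 21.

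**Figure D3:**
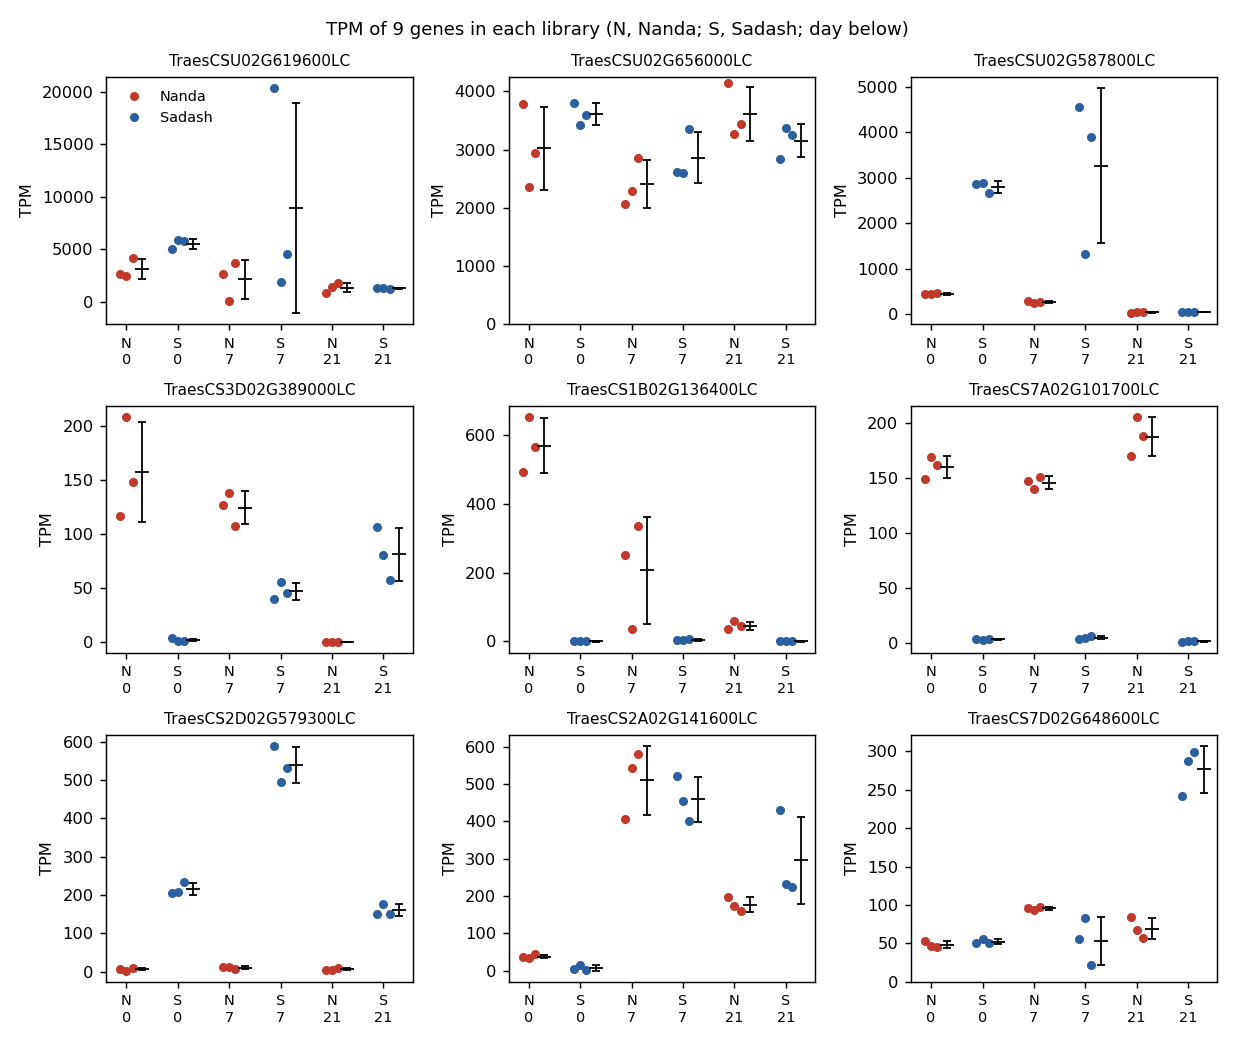
TPM of 9 members in each library, with Nanda (N, red) left of Sadash (S, blue) on Days 0, 7 and 21; points are replicates and the bars beside them the mean and SD of 3. TraesCSU02G619600LC reaches 20349 TPM in a single Sadash Day 7 library, TraesCS3D02G389000LC is at 0 in all Nanda Day 21 libraries, and TraesCS7A02G101700LC and TraesCS2D02G579300LC separate the cultivars on each day.

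Mean TPM was highest in Sadash Day 7 for 51 members, Sadash Day 21 for 44, Nanda Day 0 for 43, Nanda Day 7 for 23, Sadash Day 0 for 22 and Nanda Day 21 for 17. In that order these are 25.5%, 22%, 21.5%, 11.5%, 11% and 8.5% of the members. The other low-confidence genes that passed the filter gave 21.6%, 9.12%, 16.05%, 5.84%, 14.7% and 32.7%. Mean TPM was lowest in Nanda Day 21 for 85 members, 42.5%, against 17.2% of those other low-confidence genes. In 41 members the highest and lowest group mean differed by less than 2-fold, in 33 by 20-fold or more, and 7 members were listed at 0 in a whole group. The Sadash Day 7 replicates disagreed. Of the 184 members with at least 1 TPM in all 3, 38 spread by more than 3-fold, 20.7% against 20.5% of the low-confidence and 8.6% of the high-confidence genes tested, while the other 5 groups gave 2.78% to 5.62% of the members. In 30 of the 38 the highest value was in replicate 1, against 225 of 1302 such low-confidence genes and 791 of 3373 such high-confidence genes. The ranking by mean TPM included Sadash Day 7 replicate 1 and so favoured genes that are high in it. In that library 33 members were over 3 times as high as in replicate 2, and together they held 6.27% of the TPM in replicate 1, 0.668% in replicate 2 and 2.67% in replicate 3. These 33 include 4 of the 5 highest members and 9 unplaced genes.

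**Figure D4:**
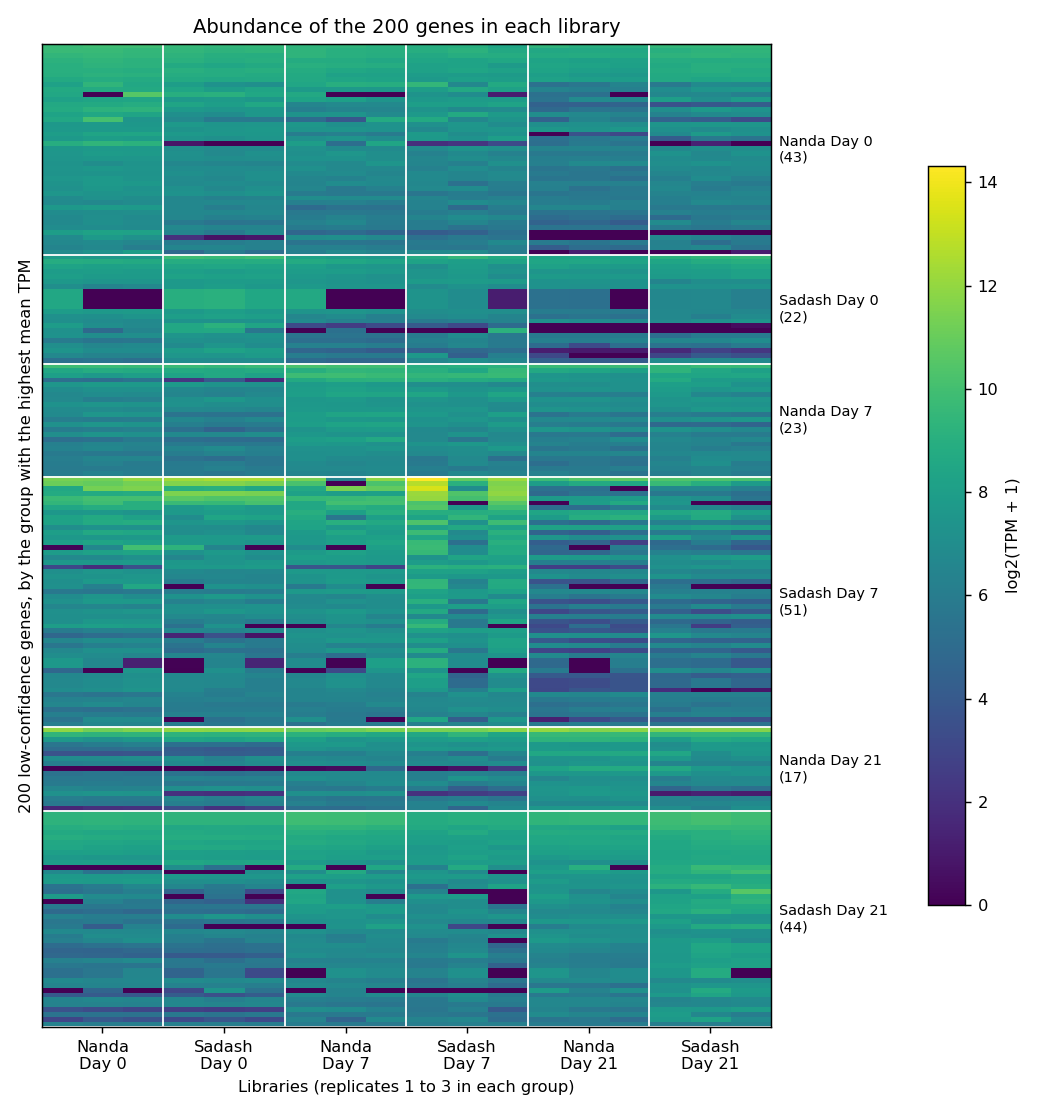
Abundance of the 200 members as log2(TPM + 1) in each library (columns, replicates 1 to 3 within a group), with members (rows) sorted by the group of highest mean TPM and, within it, by rank; the number of members is given on the right. The first Sadash Day 7 column is brighter than the other 2 in many rows of the block of 51 members, and the Nanda Day 21 columns are dark in many rows.

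Changes were tested on counts with edgeR, in a fit over the 77755 genes that reached 1 CPM in 1 or more of the libraries, of which 15765 were low-confidence. Of the members, 193 passed and 7 did not. The 7 averaged 0.165 to 0.341 CPM, though 88.7 to 168 TPM, and 6 of them were highest in Sadash Day 21. A gene was called, and is said to have risen or fallen, at an adjusted p under 0.01 (Benjamini-Hochberg over all genes tested) where its log2 fold change was 1 or more in size. Of the 193, 55 were called in none of the 7 comparisons, a count that was not made over all genes. The share called among all genes and among low-confidence genes is given as background beside each count of a single comparison. Counts over several comparisons have no such background. The members were chosen for abundance and had a median of 33.8 CPM, while other genes could enter with 1 CPM in a single library. A change may thus be easier to call in the members, and the shares were not matched for read number.

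Between Day 0 and Day 7, as microspores became proembryos, more members rose than fell in either cultivar. In Nanda, 35 of the 193 rose (18.1%, against 16.8% of all genes and 8.73% of low-confidence genes) and 13 fell (6.74%, against 14.1% and 11.6%). In Sadash, 39 rose (20.2%, against 14.3% of all genes and 8.86% of low-confidence genes) and 11 fell (5.7%, against 11.2% and 6.7%). The risen share thus lay near that of all genes in Nanda and above it in Sadash, and above that of low-confidence genes in both. In all, 22 members rose in both cultivars, 62.9% of those in Nanda and 56.4% of those in Sadash, and 5 fell in both. None was called in opposite directions. The overlap of the cultivars was not counted over all genes, so these shares have no background. Over the members, Nanda had a median log2 fold change of 0.05 and Sadash one of 0.24, beside 0 over all genes in each. Without Sadash Day 7 replicate 3, 3.63% of the members fell in Sadash, and among the 200 genes ranked by mean CPM 12% fell in Nanda and 15.5% in Sadash.

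TraesCS2A02G141600LC rose in both. On Day 7 it had 405, 544 and 579 TPM in Nanda, against 35.9, 33.6 and 43.3 TPM on Day 0. In Sadash it had 521, 455 and 401 TPM on Day 7, against 3.81, 15.1 and 2.49 TPM on Day 0. The stages were far apart in both (log2 fold changes 3.91, SE 0.43, and 5.94, SE 0.48; adjusted p = 4.8e-07 and 2.1e-08, edgeR), and the cultivars differed on Day 0 (2.44, adjusted p = 2.8e-04) but the difference did not pass on Day 7. TraesCS3B02G827700LC had a like profile, with 165, 152 and 168 TPM in Nanda on Day 7 against 26.9, 34 and 39.1 TPM on Day 0, and 153, 139 and 218 TPM in Sadash against 1.78, 10.6 and 0.71 TPM. The rise of TraesCS3B02G827700LC was smaller in Nanda by 2.78 on the log2 scale, a call lost with the replicate number as a block (adjusted p = 0.01, edgeR) and under 14 of 28 alternatives, over which it ran from 9.6e-30 to 0.023. TraesCS5B02G701700LC rose by 2.23 in Nanda and 3.58 in Sadash on the log2 scale. TraesCS5A02G441700LC went on rising in Nanda after Day 7. It had 2.01, 2.96 and 3.2 TPM on Day 0, 34.4, 34.1 and 43.8 TPM on Day 7 and 193, 190.1 and 223 TPM on Day 21, with no overlap between stages. TraesCS6A02G157800LC rose by 3.74 on the log2 scale in Nanda and 3.00 in Sadash, and then fell in Nanda (-1.32) and rose again in Sadash (2.36).

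The members that fell were high in microspores. TraesCS7B02G338600LC had 8.25, 4.75 and 8.31 TPM in Nanda on Day 7, against 238, 132 and 104 TPM on Day 0. Sadash had 15.6, 7.95 and 31 TPM on Day 7, against 375, 564 and 329 TPM on Day 0. It fell in both (log2 fold changes -4.35 and -4.53, adjusted p = 5.5e-07 and 2.6e-07, edgeR) and on Day 21 was at 0 in all Nanda libraries and at 0, 0 and 0.37 TPM in Sadash. TraesCS3B02G004100LC had 26.8, 30.7 and 23.3 TPM in Nanda on Day 7, against 246, 307 and 289.9 TPM on Day 0, and 17.3, 21.1 and 37.4 TPM in Sadash, against 86.6, 57.4 and 100.1 TPM. It had no count in any Day 21 library of either cultivar. TraesCS5D02G599900LC fell by 2.54 on the log2 scale in Nanda and 3.34 in Sadash, and TraesCS6D02G383600LC fell in Sadash (-1.95); its change in Nanda was not called, and neither was the difference between the cultivars. TraesCS6B02G078300LC fell in Nanda, with 72.6, 85.7 and 90.4 TPM on Day 7 against 426, 590.3 and 616 TPM on Day 0. In Sadash it had 162, 110.1 and 118 TPM against 203, 184 and 190.2 TPM. Its change was lower in Nanda than in Sadash by 2.00 on the log2 scale (adjusted p = 1.8e-04, edgeR).

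**Figure D5:**
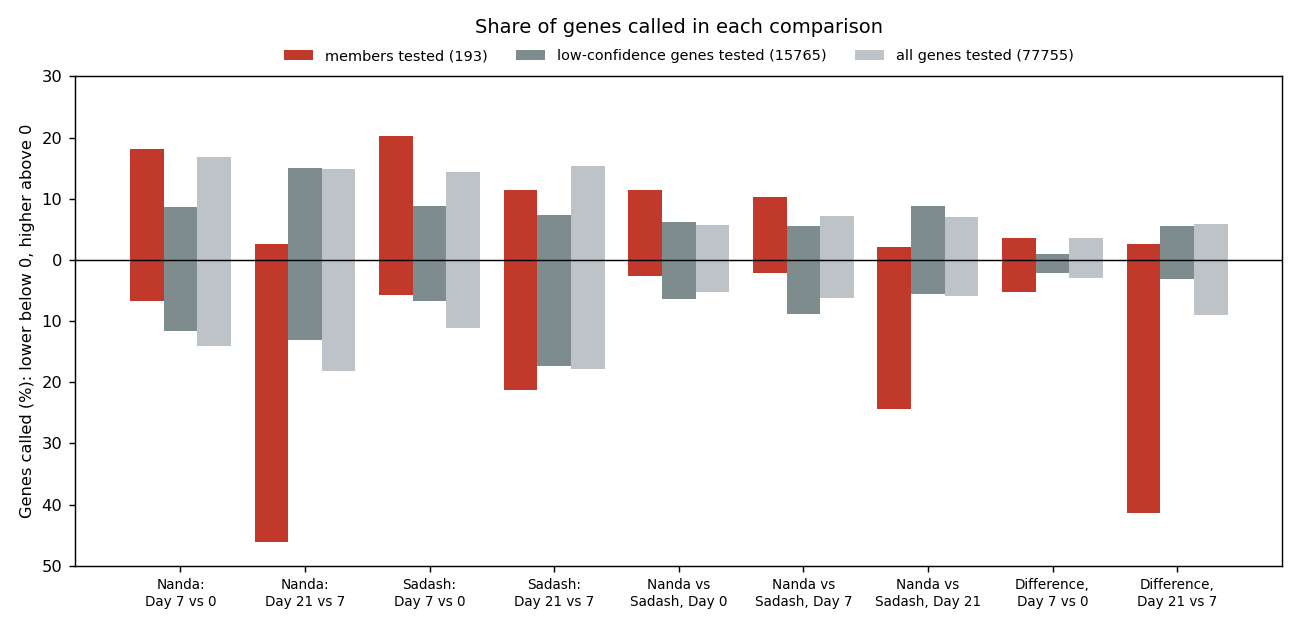
Share of genes called (%) in each comparison, higher above 0 and lower below 0, for the 193 members tested (red), all 15765 low-confidence genes tested (dark grey) and all 77755 genes tested (light grey). The last 2 comparisons are the differences between the cultivars in a change (Nanda minus Sadash). The members' bar reaches 46.1% lower in Nanda Day 21 against Day 7, beside 13.1% and 18.2%.

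Between Day 7 and Day 21, as proembryos became embryo-like structures, most of the members called in Nanda fell, while 99 of the 193 were not called. In Nanda 5 rose (2.59%, against 14.9% of all genes and 15% of low-confidence genes) and 89 fell (46.1%, against 18.2% and 13.1%). In Sadash, 22 rose (11.4%, against 15.3% and 7.35%) and 41 fell (21.2%, against 17.9% and 17.4%). The median log2 fold change of the members was -1.14 in Nanda, beside -0.06 over all genes, and 0.06 in Sadash, beside 0. Of the members that fell in Sadash, 37 also fell in Nanda, 90.2% of the Sadash list and 41.6% of the Nanda list. A further 7 fell in Nanda and rose in Sadash. These overlaps were not counted over all genes, so whether they are particular to the members was not tested. In Nanda, the members with a relative length below 0.2 fell in 50 of 101 cases and the longer ones in 39 of 92. On the log2(TPM + 1) scale, where the median of all genes in this Nanda comparison is 0.17, the members' median was -0.48 and 31.6% fell, and among the 200 genes ranked by mean CPM 33% fell. In Sadash, 13% fell without the 33 members that are over 3 times as high in Day 7 replicate 1 as in replicate 2.

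TraesCS3D02G389000LC was lost in Nanda and kept in Sadash. It had no count in the 3 Nanda Day 21 libraries, against 127, 137 and 107 TPM on Day 7 and 116, 208 and 148 TPM on Day 0. In Sadash it was lowest on Day 0 and highest on Day 21, with 2.98, 0.63 and 0.93 TPM on Day 0, 39.5, 54.8 and 45.3 TPM on Day 7 and 106, 79.8 and 57 TPM on Day 21. Nanda Day 21, set at 3 counts per library, was at least 444-fold lower than Nanda Day 7 (74.8 ± 11.1 CPM, SD, n = 3) and at least 264-fold lower than Sadash Day 21 (44.4 ± 14.8 CPM). The difference between the cultivars was called at each stage and for both changes, and the values of the cultivars overlapped on no day. TraesCS3B02G004100LC, set at the same floor, was at least 148-fold lower on Day 21 than on Day 7 in Nanda and at least 83.8-fold lower in Sadash. TraesCS7B02G137400LC had 0, 1.26 and 0 TPM in Nanda on Day 21, against 72.5, 106 and 87.2 TPM on Day 7, and 0, 0 and 1.13 TPM in Sadash against 109, 114 and 64.1 TPM.

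Other members fell from a high level or were called in Nanda only. TraesCS1B02G552100LC, the sixth in rank, had 221, 227 and 244 TPM in Nanda on Day 21, against 763, 835 and 939 TPM on Day 7. Sadash libraries had 170.2, 136 and 45.7 TPM, against 4258, 1038 and 2907 TPM. Both changes were called (log2 fold changes -2.30 and -4.43), with no overlap between the stages. The difference between the cultivars of 2.13 lost its call with the replicate number as a block (adjusted p = 0.012, edgeR) and under 17 of 28 alternatives, over which it ran from 1.2e-40 to 0.032. TraesCS4A02G444400LC peaked on Day 7 in Nanda, with 266, 217 and 256 TPM on Day 0, 893, 921 and 786 TPM on Day 7 and 175, 162 and 143 TPM on Day 21. In Sadash it had 317, 397 and 293 TPM, 689, 751 and 785 TPM and 346, 342 and 351 TPM on these days. Its rise was called in both and its fall in Nanda (-2.88, adjusted p = 1.2e-11, edgeR), and the fall was steeper there by 1.92 on the log2 scale (adjusted p = 3.1e-07).

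Few members rose after Day 7 in Nanda. TraesCS4D02G023400LC was the extreme case. In Nanda it had no count on Day 0, 0.17, 0.33 and 27.6 TPM on Day 7 and 309, 446 and 423 TPM on Day 21. Sadash showed 0, 0 and 0.13 TPM, 0.13, 0.64 and 4.09 TPM and 394, 195 and 157 TPM. The Nanda Day 7 library with 27.6 TPM is replicate 3, the library that also held 10.2 TPM of a vicilin type and 70.7 TPM of 1-Cys peroxiredoxin, against 0.77 and 0.55 TPM of this peroxiredoxin in replicates 1 and 2. The rise to Day 21 was called in Nanda (5.07, SE 0.95, adjusted p = 2.9e-04, edgeR) and in Sadash (7.34, SE 1.13, adjusted p = 4.3e-05). For its earlier rise in Nanda, the Day 7 mean (6.33 CPM, SD 10.65, n = 3) was 32.6-fold over a floor of 3 counts per library. That mean rests on replicate 3, as replicates 1 and 2 had only 2 and 3 expected counts. The call of this rise was lost with the replicate number as a block (adjusted p = 0.01, edgeR) and without Nanda Day 7 replicate 3 (adjusted p = 0.24). It was lost under 7 of 28 alternatives in all, over which adjusted p ran from 1.4e-74 to 0.24. TraesCS2B02G285200LC rose at both steps in both cultivars, with 369, 385 and 400.0 TPM in Nanda on Day 21 against 71.3, 70.1 and 102 TPM on Day 7, and 348, 129 and 189 TPM in Sadash against 70.6, 35.8 and 92 TPM.

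Several members that were highest in Sadash on Day 21 are neighbours. By identifier, TraesCS7B02G661400LC to TraesCS7B02G662500LC hold 6 members, TraesCS7D02G648600LC to TraesCS7D02G648900LC hold 3 and TraesCS1B02G646500LC and TraesCS1B02G646800LC are a further pair, some of them chosen for description after their values were seen. These 11 were picked for a highest mean TPM in Sadash Day 21, so that peak is no result about neighbours. Neighbouring members with a peak in another group were not counted here. Of the 11, 8 were tested and rose in Sadash after Day 7, beside 11.4% of the members, 15.3% of all genes and 7.35% of low-confidence genes. With the peak picked first, such a rise was largely fixed in advance. TraesCS7B02G662100LC, TraesCS7B02G662200LC and TraesCS7B02G662500LC had too few counts to be tested. TraesCS7D02G648600LC had 242, 288 and 299.8 TPM in Sadash on Day 21, against 55, 83.6 and 21.3 TPM on Day 7, a rise of 2.51 on the log2 scale (SE 0.29, adjusted p = 9.4e-07, edgeR). In Nanda it had 83.8, 67.7 and 56.4 TPM on Day 21, against 96.1, 93.5 and 96.8 TPM on Day 7. Only the Sadash values of Day 21 lay above all others. TraesCS1B02G646500LC had 389, 545 and 351 TPM in Sadash on Day 21, against 109, 164 and 90 TPM on Day 7, whereas Nanda had 107, 106 and 95.5 TPM against 229.9, 179 and 222 TPM, so that it rose in Sadash and fell in Nanda. TraesCS7B02G661400LC, TraesCS7B02G661800LC and TraesCS7D02G648700LC rose in Sadash by 2.09, 2.21 and 2.30 on the log2 scale. Expected counts were not whole in most libraries for any of these genes, so reads were divided between them and other models. TraesCS7B02G662400LC rose by 4.44 on 0.371 CPM on average, a call lost without Sadash Day 21 replicate 3 and with only the compared libraries in the fit, with adjusted p between 0.00019 and 0.029 over its alternatives (edgeR, limma or DESeq2). It had 0.327, 1.03 and 2.36 CPM in Sadash on Day 21 and under 1 CPM in every other library. It thus entered the test only through the group where it is high, and its rise is no independent result.

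Between the cultivars, members were more often higher in Nanda early and lower in Nanda late. As microspores on Day 0, 22 of the 193 were higher in Nanda (11.4%, against 5.67% of all genes and 6.19% of low-confidence genes) and 5 were lower (2.59%, against 5.32% and 6.41%). As proembryos on Day 7, 20 were higher (10.4%, against 7.16% and 5.55%) and 4 lower (2.07%, against 6.26% and 8.9%). As embryo-like structures on Day 21, 4 were higher (2.07%, against 7.1% and 8.79%) and 47 lower (24.4%, against 5.96% and 5.54%). The median log2 fold changes were 0.34, 0.35 and -0.78 on Days 0, 7 and 21, beside 0, 0.03 and 0 over all genes. On the log2(TPM + 1) scale the share of upward calls was 66.7% on Day 0 and 60% on Day 7, in place of 81.5% and 83.3%, and 4.66% of the members were higher on Day 7. Among the 200 genes ranked by mean CPM, 6.5% were higher and 8.5% lower in Nanda on Day 0 and 15% lower on Day 21, and without Sadash Day 7 replicate 2, 7.25% of the members were lower on Day 7.

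The cultivars differed in the same direction at all 3 stages in 4 members, a count that was not made over all genes. TraesCS7A02G101700LC had 149, 169 and 162 TPM in Nanda against 3.11, 2.74 and 3.3 TPM in Sadash on Day 0. On Day 7 it had 147, 139.5 and 151 TPM in Nanda against 3.1, 4.61 and 5.69 TPM in Sadash, and on Day 21 170.1, 205 and 188 TPM against 1.04, 1.56 and 1.11 TPM. The log2 fold changes were 5.77, 5.30 and 7.02 (adjusted p = 3.0e-13, 3.5e-13 and 4.2e-14, edgeR), and its counts were whole in each library. TraesCS1B02G136400LC was close to absent from Sadash, with 491, 650.2 and 563 TPM in Nanda on Day 0 against 0.77, 0 and 0 TPM. On Day 7 it had 249.7, 35.1 and 334 TPM in Nanda against 2.88, 3.66 and 8.24 TPM in Sadash, and on Day 21 35.2, 58.7 and 44.2 TPM against 0, 1.54 and 0 TPM. Each Nanda value lay above each Sadash value of the same day, and no member was without any count in a whole cultivar while at 1 CPM or more in all libraries of the other.

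TraesCS2D02G579300LC was the reverse, with 7.59, 2.86 and 10.3 TPM in Nanda against 206, 208 and 235 TPM in Sadash on Day 0. On Day 7 it had 12.6, 13 and 6.37 TPM in Nanda against 588, 495 and 532 TPM in Sadash, and on Day 21 5.29, 5.29 and 8.48 TPM against 151, 178 and 149.9 TPM. The log2 fold changes were -4.88, -5.33 and -4.98 (adjusted p = 8.0e-10, 1.2e-10 and 6.7e-10, edgeR). TraesCS5B02G781700LC differed less, by -1.57, -1.68 and -2.89. Among the others, TraesCS1B02G793300LC, rank 17, was lower in Nanda on Day 0 and Day 21 (-2.00 and -1.50), and TraesCS3B02G546400LC was lower on Day 7 (-1.20). TraesCS2B02G299700LC was higher in Nanda on Day 7, with 249.8, 277 and 396 TPM against 106, 49.7 and 106 TPM in Sadash (2.12, adjusted p = 1.1e-04). On Day 21, TraesCS6D02G054800LC had 0, 11.3 and 7.47 TPM in Nanda against 112, 218 and 156 TPM in Sadash (-5.00, adjusted p = 6.1e-07), while TraesCS6D02G383600LC was higher in Nanda, with 177, 197 and 169 TPM against 25.6, 50.2 and 37.6 TPM (1.99, adjusted p = 6.2e-05). TraesCSU02G604900LC was also higher on Day 21, at 7.66, 13.3 and 12.2 TPM in Nanda against 2.61, 0 and 0.79 TPM in Sadash (2.39, adjusted p = 0.0085), a call lost under 12 of 28 alternatives with adjusted p of up to 0.045.

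The change from Day 7 to Day 21 itself differed between the cultivars in many members. It was lower in Nanda than in Sadash for 80 (41.5%, against 9.07% of all genes and 3.14% of low-confidence genes) and higher for 5 (2.59%, against 5.85% and 5.63%). Of the 80, 36 fell in Nanda and were not called in Sadash, 9 rose in Sadash and were not called in Nanda, 7 did both, 4 fell in both and 24 were called in neither. This split was not made over all genes. On the log2(TPM + 1) scale, on which the median of all genes is 0.34, 20.2% were lower and the members' median was -0.58, in place of -1.13, and 20.4% of its calls were upward, in place of 5.88%. TraesCS7A02G451200LC, with whole counts throughout, shows the pattern. It had 375, 357 and 292 TPM in Nanda on Day 21, against 660.3, 652 and 569 TPM on Day 7, and in Sadash 812, 763 and 731 TPM, against 418, 339 and 431 TPM. It fell in Nanda (-1.34) and rose in Sadash (1.07), a difference of -2.41 (SE 0.20, adjusted p = 1.6e-07, edgeR). TraesCS6D02G482000LC and the equal-valued set of TraesCS2A02G239100LC, ranks 7 to 10, differed in the same direction by -1.45 and -2.07, as did TraesCS7B02G594700LC, TraesCS2A02G583000LC, TraesCS7A02G710000LC and TraesCSU02G113100LC, among ranks 11 to 20, by -1.44, -1.37, -1.46 and -1.55. TraesCS5B02G413000LC and TraesCSU02G607400LC, ranks 12 and 13, were called in no comparison, and the second of these spread over 0, 252 and 408 TPM in Nanda on Day 21 and 179, 0 and 0 TPM in Sadash.

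The change from Day 0 to Day 7 differed less often. It was higher in Nanda for 7 members (3.63%, against 3.63% of all genes and 0.932% of low-confidence genes) and lower for 10 (5.18%, against 2.92% and 2.06%). Between 0.518% and 6.22% were higher, and between 2.59% and 13% lower, when single libraries were left out, with the low ends without Nanda Day 0 replicate 3 (higher) and without Nanda Day 0 replicate 2 or Nanda Day 7 replicate 1 (lower) and both high ends without Sadash Day 7 replicate 2. Without Sadash Day 0 replicate 3 the shares were 1.04% and 3.11%, and without Nanda Day 7 replicate 1 1.55% were higher. The share of upward calls, 41.2%, was 13.3% with RLE size factors, 14.3% with DESeq2 and 20% on the log2(TPM + 1) scale. TraesCS1D02G507900LC gave the largest higher difference, 1.74 (adjusted p = 1.2e-05, edgeR). It had 205, 175 and 174 TPM in Nanda on Day 7 against 135, 88.5 and 99.7 TPM on Day 0, and 118, 154 and 125 TPM in Sadash against 202, 248 and 196 TPM. Neither change was called by itself. TraesCS3B02G612300LC had a lower change in Nanda by 2.18 on the log2 scale (adjusted p = 0.0013), with 161, 167 and 114 TPM on Day 7 against 309, 372 and 333 TPM on Day 0, and 207, 416 and 222 TPM in Sadash against 139.8, 123 and 191 TPM.

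The least variable member was TraesCS2B02G431100LC, with a coefficient of variation of 11.3% over the 18 libraries and values of 54.6 to 79.8 TPM in Nanda and 65.1 to 82.5 TPM in Sadash. The next were TraesCS2A02G176900LC, TraesCS1D02G049200LC, TraesCS1D02G536000LC and TraesCS1B02G525100LC. The median coefficient was 50% and the highest 184%. At the limit of the ranking the values were close. TraesCS7B02G137400LC and TraesCS3D02G152500LC, ranks 199 and 200, averaged 66.5 and 66.3 TPM, and TraesCS7B02G619400LC and TraesCS3B02G656600LC, the first 2 outside, both averaged 66.3 TPM. With a single library left out, 193 to 198 of the 200 remained, and 183 remained by median TPM, 170 by the highest group mean and 168 by the mean of log2(TPM + 1).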

How the data were processed

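RNA-seq libraries of Nanda and Sadash microspore cultures (3 biological replicates on Days 0, 7 and 21) were used. Per the submitters' processing notes and the study's methods, the authors used Trimmomatic 0.39 (trimming), STAR 2.7.5a (alignment), RSEM 1.3.3 (quantification) and the wheat annotation IWGSC v1.1; they left low-confidence genes out of their own analysis. The deposited expected counts and the deposited TPM values of 298774 transcripts were summed here to genes, and expected counts were rounded to whole numbers. RSEM divides shared reads, which can move counts between similar models, and TPM inflates short ones. The members and lists were chosen with earlier results of these data known.

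Genes that reached 1 CPM in 1 or more of the 18 libraries were fitted with edgeR 4.0.16 (TMM, quasi-likelihood, R 4.3.3) over all 6 groups. A call needed an adjusted p under 0.01 (Benjamini-Hochberg) and a log2 fold change of 1 or more in size, the study's limits. Standard errors were derived from the F statistic. Interactions tested whether a change differed between cultivars. The script was tested on simulated data. Alternatives were DESeq2 1.42.0, other size factors and filters, limma 3.58.1 on log2(TPM + 1) or log2(TPM + 0.1), only the libraries compared, a replicate block, each library left out and other rankings of genes. Summaries used Python 3.11.15, numpy 2.4.6, pandas 2.3.3 and matplotlib 3.10.9. P-values judge a difference against the spread between these libraries. With a single cultivar per response type, they do not cover variation among cultivars.

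Deviations from group means were correlated between same-numbered libraries. Only for Nanda against Sadash on Day 21 were all 3 correlations over 0.1 (0.166 to 0.409), with each library closest to its own number. For the cultivars on Day 0 all 3 were negative (-0.291 to -0.17). The labels give replicate numbers only, so a pairing of the Day 21 libraries is not established. The replicate block fits a shared effect per number over all 6 groups, not a pairing on Day 21. It changed none of the 51 calls of Day 21, which therefore does not bear on such a pairing.

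Named were the 20 members with the highest mean TPM, in each comparison and direction the 4 called members with the largest fold change that moved alike in all 9 pairs of libraries, the 3 largest in each direction of each interaction, members without counts in 1 cultivar and at 1 CPM or more throughout the other, the genes at the rank limit, the 5 steadiest members and the 3 most like the highest. None of the member identifiers was found in the reference table used, so no names, coordinates or sequences are given.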

Additional observations from a re-analysis of the deposited data

Results flagged for a closer look

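Listed here are 12 cases, at 11 members, in which a change between stages differed between Nanda and Sadash. The interaction test of edgeR was used (log2 fold change of Nanda minus that of Sadash). They are the 3 largest called in each direction of each interaction. In all, 17 members were called from Day 0 to Day 7 and 85 from Day 7 to Day 21. From Day 0 to Day 7 the difference was 1.74 in TraesCS1D02G507900LC, 1.23 in TraesCS1B02G793300LC and 1.19 in TraesCS2B02G276200LC, and it was -4.98 in TraesCS3D02G389000LC, -2.78 in TraesCS3B02G827700LC and -2.18 in TraesCS3B02G612300LC. From Day 7 to Day 21 it was 3.05 in TraesCSU02G604900LC, 2.66 in TraesCSU02G587800LC and 2.13 in TraesCS1B02G552100LC, and it was -14.14 in TraesCS3D02G389000LC, -5.90 in TraesCS7B02G662400LC and -3.95 in TraesCS6D02G054800LC. The value of -14.14 is a fitted one against libraries without counts and is no bound on the change. TraesCS7B02G662400LC reached 1 CPM only in Sadash Day 21 libraries, so it entered the test through the group where it is high. Calls of 7 of the 12 were lost under at least 1 alternative.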

How the results depend on the processing

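Shares are percentages of members called higher or lower, in the order of the comparisons in the report, and the cause of each move was not tested. With DESeq2 the interaction of Day 7 against Day 0 gave 1.6% higher and 9.57% lower of the 188 members with an adjusted p, and 1.04% higher with RLE size factors. On log2(TPM + 0.1), 4.15% rose in Nanda after Day 7, 4.15% were higher in Nanda on Day 7, 1.55% were higher in the early interaction, and 4.15% higher and 20.2% lower in the late one. On log2(TPM + 1) the same 5 shares were 4.15%, 4.66%, 2.07%, 5.18% and 20.2%, beside 4.15% lower on Day 0 and 8.29% lower in the early interaction. Low-confidence genes alone gave 2.59% lower in the early interaction. Without a filter, 5% were lower on Day 0 and 6.5% on Day 7, the early interaction had 10.5% higher and 17.5% lower, and the late one 4.5% higher. With only the libraries compared, 17.6% were higher on Day 0 and 1.55% in either interaction. Without the fold limit, 4.15% rose in Nanda after Day 7, 17.1% fell in Sadash by Day 7, 28% rose in Sadash after Day 7, 5.18% were lower on Day 0, 25.9% higher and 3.63% lower on Day 7, 3.63% higher and 40.4% lower on Day 21, and 8.29% higher in the early interaction.

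Ranking by mean CPM gave 12% falling in Nanda and 15.5% in Sadash by Day 7, 9.5% rising in Nanda after it, 6.5% higher and 8.5% lower on Day 0, 5.5% lower on Day 7, 8.5% higher and 15% lower on Day 21, 9% higher and 3% lower in the early interaction and 8% higher in the late one. Ranking by median TPM gave 1.55% rising in Nanda after Day 7. The 100 highest gave 4.08% falling in Nanda and 1.02% in Sadash by Day 7, 1.02% rising in Nanda and 6.12% in Sadash after it, 1.02% higher on Day 21 and 7.14% higher in the early interaction. The next 3 settings were chosen after seeing the data. At a relative length of at least 0.2, 4.35% rose in Nanda after Day 7 and 8.7% fell in Sadash by Day 7. The 21 members with whole counts gave 0% falling by Day 7 in either cultivar, 0% rising in Nanda and 4.76% in Sadash after it, 19% higher and 0% lower on Day 0, 0% lower on Day 7, 9.52% higher on Day 21, 9.52% lower in the early interaction and 4.76% higher in the late one. Without the members that were over 3 times as high in Sadash Day 7 replicate 1 as in replicate 2, 13% fell in Sadash after Day 7. Keeping 1 gene of each equal-valued set, also chosen after seeing the data, moved no share by over 1.5 times.

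Leaving out single libraries gave 15.5% to 18.7% rising and 5.18% to 7.77% falling in Nanda by Day 7, and 16.1% to 24.9% rising and 3.63% to 6.22% falling in Sadash, the 3.63% without Sadash Day 7 replicate 3. After Day 7 it gave 2.59% to 3.11% rising and 41.5% to 49.7% falling in Nanda, and 10.9% to 13.5% rising and 18.7% to 23.3% falling in Sadash. Higher and lower in Nanda were 8.29% to 16.1% and 2.59% to 3.63% on Day 0, 7.77% to 13% and 2.07% to 7.25% on Day 7 (7.25% without Sadash Day 7 replicate 2), and 1.55% to 2.07% and 20.2% to 29.5% on Day 21. The early interaction ranged over 0.518% to 6.22% higher and 2.59% to 13% lower. The late one ranged over 1.55% to 4.15% higher (1.55% without Nanda Day 21 replicate 2, Nanda Day 21 replicate 3 or Sadash Day 21 replicate 3, 4.15% without Sadash Day 7 replicate 2) and 35.2% to 42.5% lower. Of 68 results on named members, none reversed under 1902 alternatives, and 75 alternatives over 11 results lost the call. With the replicate number as a block the calls numbered 47, 94, 49, 62, 26, 24, 51, 15 and 81, in place of 48, 94, 50, 63, 27, 24, 51, 17 and 85. By their labels the libraries share only a number. Among named members the block lost the calls given in the report and no other. On the TPM scale the median of all genes moved by 0.23 for Nanda after Day 7, by 0.14 on Day 21 and by 0.36 in the late interaction, and by -0.13 on Day 7. Members under 1 CPM, 12 in all, rest on few reads, and changes in them may not be detectable at this depth.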
